A study of Schizosaccharomyces pombe with 24 samples.

Results

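Fission yeast strains with lesions around the same histone mark were compared directly with each other at the RNA level: 3 libraries labelled *set1*Δ were set against 3 libraries of the H2B mutant *htb1-P102L*, that is 6 of the 24 libraries of the series. Both groups were chosen by their labels, and the WT libraries took no part in the test. The sample titles give the first strain as a deletion of *set1* and its genotype field as a knockdown. The H2B mutant carries a proline to leucine substitution in *htb1*, the single H2B gene of *Schizosaccharomyces pombe*. The study lists the *htb1-P102L* strain as h- with *leu1-32*, *ura4-D18* and an *ade6* entry given with a question mark. It names the *set1*Δ strain differently in separate legends, and only one of these names is found in its strain list. That strain is h+ with *leu1-32*, *ura4-D18* and the *kanMX6* marker in place of *set1*, and has no *ade6* entry. The list also holds *set1*Δ strains that carry *set1* under the *nmt1* promoter or an *htb1* mutation, and which strain gave the libraries is not settled by the labels. RNA was selected with oligo(dT) beads from cultures of the study's 3 biological repeats, so each value below has 3 libraries behind it. The question was which genes differ between loss of the H3K4 methyltransferase, as labelled, and an H2B mutation that lies close to the same pathway.

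As background, the ubiquitin ligase complex HULC attaches ubiquitin to a lysine near the C terminus of H2B, and this mark stimulates the Set1 complex (COMPASS) to methylate lysine 4 of histone H3. In *S. pombe*, Set1 is known for H3K4 methylation at transcribed genes and for repression of stress, subtelomeric and meiotic genes. The stress-activated MAP kinase Sty1 and its transcription factor Atf1 turn on a shared set of stress genes, the cAMP pathway and glucose repress genes for the use of other carbon sources, and the MBF factor turns on G1/S genes.

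The codon that the mutation alters is shown with its flanks because it defines one of the strains. It was read from the RefSeq ASM294v3 genome at *htb1* (SPCC622.09, chrIII:1412778-1412804, plus strand, within the single coding exon), with the proline codon of the substituted residue in capitals, residues being counted from the one after the initiator methionine.
htb1: cgtttgattcttCCCggtgagttagcc

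The 3 libraries labelled *set1*Δ held 19250529, 26315156 and 28181070 counts, against 19525774, 25004705 and 24037678 counts in *htb1-P102L*. The 100 most abundant genes held 60.6% to 62.3% of the counts in the libraries labelled *set1*Δ and 56.5% to 62.4% in *htb1-P102L*. Replicates differed by more than sampling noise, with a chi-square per gene of 11.9 to 27.1 between libraries labelled *set1*Δ and 12.7 to 103 between *htb1-P102L* libraries, where replicate 1 stood apart from the other 2. That replicate alone held *ura4*, with 712 counts against at most 1 in the other 5 libraries. *mat1-Mc*, which only M cells express, had 0 counts in all 3 libraries labelled *set1*Δ and 78, 150 and 0 counts in *htb1-P102L* replicates 1, 2 and 3. WT replicate 3 also held both genes, with 865 *ura4* and 103 *mat1-Mc* counts, and the other WT libraries had 0. The *ura4* counts of *htb1-P102L* replicate 1 go against the *ura4-D18* deletion of the listed strain, and the absence of *mat1-Mc* counts in replicate 3 differs from the other libraries of a strain given as h-. Counts without replicate 1, or without replicates 1 and 2, are given where they bear on a result.

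The transcript of *set1* (SPCC306.04c) went against the label of a deletion. It stood at 17.2, 13.8 and 16.4 CPM (counts scaled to library size, with TMM factors) in the libraries labelled *set1*Δ, against 1.09, 2.03 and 2.13 CPM in *htb1-P102L*. Every library labelled *set1*Δ lay above every *htb1-P102L* library, a difference of 3.11 on the log2 scale (standard error 0.192, adjusted p = 7.3e-08). In WT, on a scale over 9 libraries, *set1* was at 1.03, 1.08 and 1.43 CPM, against means of 14.9 CPM in the libraries labelled *set1*Δ and 1.61 CPM in *htb1-P102L*, so the libraries labelled *set1*Δ were the ones that stood apart. The counts do not show which part of the transcript was read. Each direction below therefore rests on the labels. None of the other 7 tested subunits of the Set1 complex was called, with log2 fold changes between −0.59 for *swd2* and 0.45 for *shg1*. *htb1* itself averaged 762 ± 56.8 CPM in the libraries labelled *set1*Δ and 1481 ± 113 CPM in *htb1-P102L* (SD, n = 3 each), a log2 fold change of −0.96 (adjusted p = 0.000136) that fell short of the 2-fold threshold.

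Of 4905 tested genes, 168 (3.43%) were called higher and 329 (6.71%) lower in the libraries labelled *set1*Δ than in *htb1-P102L*, 10.1% in either direction. A gene was called at an adjusted p under 0.05 in edgeR's quasi-likelihood test and a fold change of at least 2. Rises and falls below are those of the libraries labelled *set1*Δ relative to *htb1-P102L*, and are not changes from WT. The genes called lower were led by stress, trehalose, glycerol and carbon genes, and those called higher held phosphate, cell wall, cell separation, G1/S and subtelomeric genes. Changes of at least 4-fold were found for 29 of the genes called higher and 64 of those called lower. When libraries were scaled by total counts in place of TMM, the median log2 fold change of all genes moved from −0.03 to −0.15, and 124 genes were called higher and 413 lower. The median exonic length was 1635 bases for genes called higher, 1777 bases for genes called lower and 1723 bases for all tested genes. A gene of the opposite strand covered at least 50% of the length of 45.2% of the genes called higher, 47.7% of those called lower and 44.5% of all tested genes. Use of the strand in counting is not stated, so the values of such genes may include reads of their partners. This limit is not repeated at each gene below. Among others it holds for *cdc22*, *fbp1* and SPBC21C3.19 (100% covered), SPAC23H3.15c (95.2%), *pho84* (89.5%), *urg1* (87.6%), *tos4* (86.4%) and *eng1* (84.7%).

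**Figure D1:**
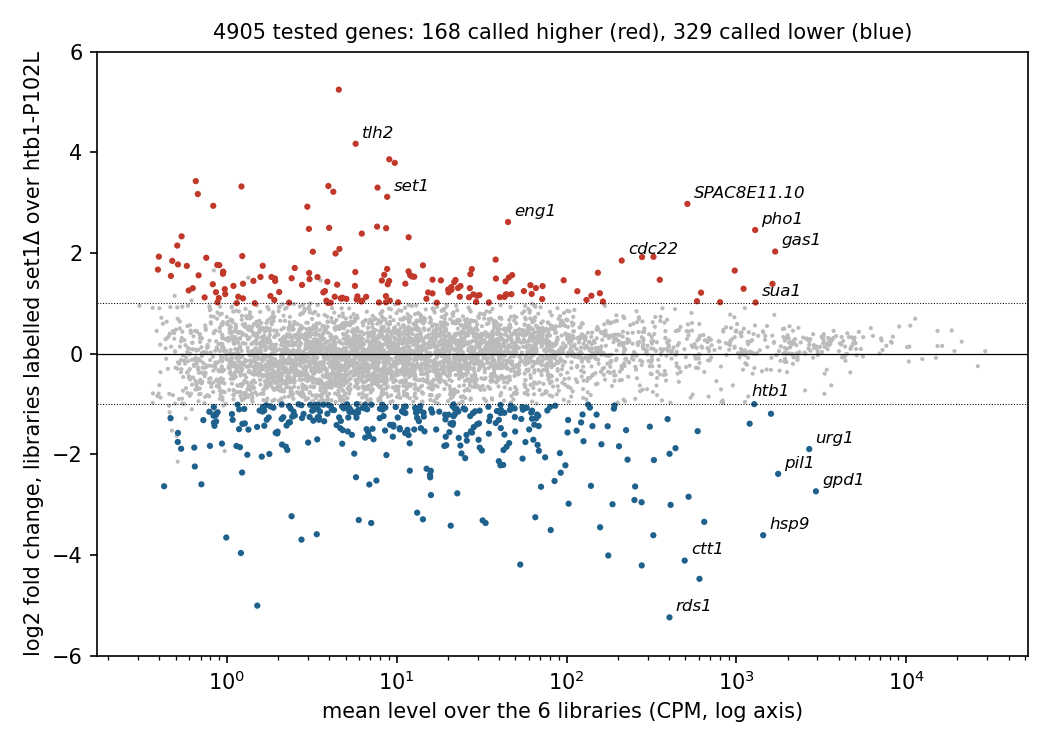
Each point is a tested gene, with its mean level over the 6 libraries in CPM on a log axis and its log2 fold change, libraries labelled *set1*Δ over *htb1-P102L*. Genes called higher are red, genes called lower blue, and dotted lines mark a 2-fold change; the abundant genes *hsp9* and *gpd1* lie far below 0 and *pho1* and *gas1* above it, while *uga1* and SPCC965.12, both at 0 counts in *htb1-P102L*, are off the scale and not drawn.

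The core stress response was lower throughout. All 10 genes of a list of stress genes were called lower in the libraries labelled *set1*Δ, against 6.71% of all tested genes, with a median log2 fold change of −2.42 against −0.03 over all tested genes. The list came from an earlier analysis of these data and is not independent evidence of its direction. Catalase, *ctt1*, which breaks down hydrogen peroxide, stood at 61.3, 53.5 and 48.1 CPM in the libraries labelled *set1*Δ, against 883, 975 and 954 CPM in *htb1-P102L* (log2 fold change −4.11, standard error 0.143, adjusted p = 9.91e-10). The groups were far apart, and the 3 libraries of each lay close together. The small heat shock protein gene *hsp9* was at 223, 238 and 193 CPM in the libraries labelled *set1*Δ, against 2948, 2660.0 and 2361 CPM in *htb1-P102L* (log2 fold change −3.61, standard error 0.169). *gpd1*, the glycerol-3-phosphate dehydrogenase that makes glycerol under osmotic stress, was at 793, 736 and 772 CPM in the libraries labelled *set1*Δ, against 5565, 5199 and 4562 CPM in *htb1-P102L* (log2 fold change −2.74, standard error 0.171). Per length, in FPKM (fragments scaled by transcript length and depth), *hsp9* was the most abundant of the 10 in *htb1-P102L*, at 294 ± 48.3 FPKM in the libraries labelled *set1*Δ and 3815 ± 304 FPKM in *htb1-P102L*, while *gpd1* was at 421 ± 33.1 and 3001 ± 288 FPKM (SD, n = 3 each) in the same order. The smallest change of the list was that of the glutathione peroxidase gene *gpx1*, with a log2 fold change of −1.03. It was the gene whose call was lost without *htb1-P102L* replicate 3, where 9 of the 10 were called. In bulk RNA, fewer cells that express a gene and less RNA per cell cannot be told apart. All 10 were called without *htb1-P102L* replicates 1 and 2.

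Some genes around the stress MAP kinase Sty1 were lower too, but they belong to no list and the kinase genes of the cascade were not called. *sty1* itself had a log2 fold change of 0.12 and the kinase genes above it, *wis1*, *wis4* and *win1*, had −0.17, −0.28 and 0.55. The transcription factor gene *atf1* was at 25.1, 25.3 and 24.8 CPM in the libraries labelled *set1*Δ, against 156, 151 and 128 CPM in *htb1-P102L* (log2 fold change −2.53, adjusted p = 4.34e-09). The kinase gene *srk1*, whose product acts below Sty1, was at 32.2, 27.8 and 30.0 CPM against 164, 155 and 144 CPM in *htb1-P102L* (log2 fold change −2.37). Neither gene had overlapping groups. Sty1 is switched off by the phosphatases Pyp1 and Pyp2, and both of their genes were called lower, *pyp2* by a log2 fold change of −2.78 and *pyp1* by −1.48. So was *ptc1* (log2 fold change −1.21), for a PP2C phosphatase. *atf1*, *srk1*, *pyp1* and *ptc1* stood in no stress list and were named after their values were seen, as were the uncalled kinase genes. So were *dak1*, *inv1*, *rsv1*, *gpa2*, *git11* and the 3 neighbours of *pdc102* and SPAC750.08c given further on.

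Chaperones and antioxidant genes changed in part. Of 20 chaperone genes, 5 were called lower and none higher. *hsp16* averaged 38.8 ± 3.53 CPM in the libraries labelled *set1*Δ and 239 ± 30.6 CPM in *htb1-P102L* (log2 fold change −2.63). *hsp104*, the disaggregase, averaged 34.8 ± 2.82 CPM in the libraries labelled *set1*Δ and 162 ± 36.3 CPM in *htb1-P102L* (log2 fold change −2.22), and *ssa1*, a cytosolic Hsp70, averaged 122 ± 18.9 and 531 ± 122 CPM in the same order (log2 fold change −2.12). The housekeeping chaperones were elsewhere: the median over the 20 was 0.00, and *hsp90*, *ssa2* and *ssc1* each had a log2 fold change of 0.00. Of 18 antioxidant genes, 4 were called lower: *ctt1*, the glutathione S-transferase gene *gst3* (log2 fold change −1.52), the sulfiredoxin gene *srx1* (−1.27) and *gpx1*. The thioredoxin and superoxide dismutase genes of that list were not called.

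**Figure D2:**
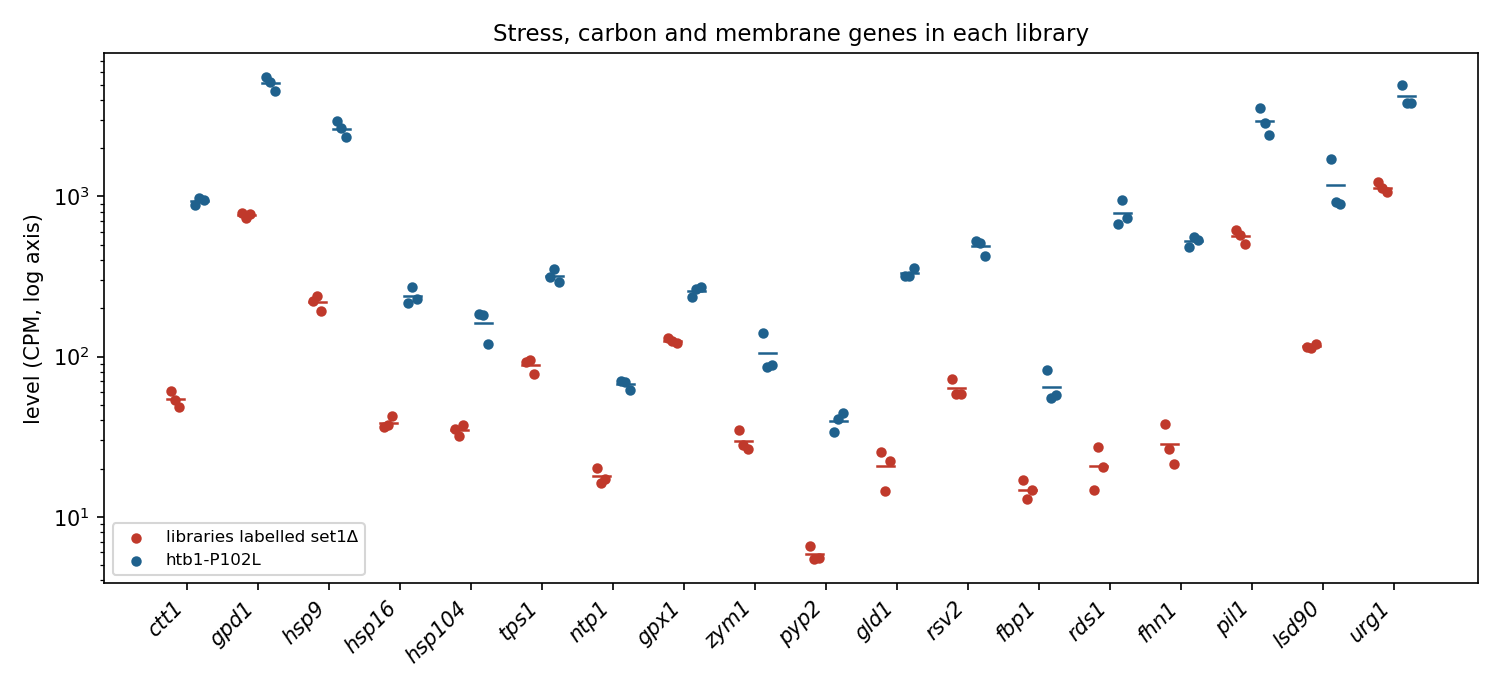
Points are the 3 libraries of each group, red for the libraries labelled *set1*Δ and blue for *htb1-P102L*, and bars are group means; the axis gives the level in CPM on a log scale. In each of the 18 genes every red point lies below every blue one, with *gpx1* closest together (126 ± 4.62 against 257 ± 18.4 CPM, SD, n = 3 each) and *rds1* farthest apart.

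Trehalose and glycerol metabolism fell together with the stress genes, and the lists share *gpd1*, *tps1* and *ntp1*. Of 9 tested genes for trehalose and glycerol, 5 were called lower and none higher. *gld1*, the glycerol dehydrogenase with which glycerol is used as a carbon source, was at 25.2, 14.5 and 22.2 CPM in the libraries labelled *set1*Δ, against 317, 318 and 359 CPM in *htb1-P102L* (log2 fold change −4.01, standard error 0.179, adjusted p = 6.29e-09). *tps1*, the trehalose-6-phosphate synthase, was at 92.9, 95.4 and 78.3 CPM in the libraries labelled *set1*Δ, against 314, 350.1 and 291 CPM in *htb1-P102L* (log2 fold change −1.84). The trehalase gene *ntp1* had a log2 fold change of −1.92 and the dihydroxyacetone kinase gene *dak1* of −1.30. Genes for the synthesis and the breakdown of trehalose both fell, while *tpp1*, the trehalose phosphatase gene, was not called (log2 fold change 0.06). A further gene annotated as a trehalose-phosphate synthase, SPAC22F8.05, was at 5.84, 5.72 and 6.13 CPM in the libraries labelled *set1*Δ, against 56.5, 66.3 and 59.6 CPM in *htb1-P102L* (log2 fold change −3.37, standard error 0.109). The sets of libraries were far apart and each lay close together, though a non-coding RNA gene of the opposite strand covers 88.2% of this gene.

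Genes that glucose represses, and parts of the cAMP pathway that does so, were lower too. Of 19 genes on that list, 9 were called lower and none higher, with a median log2 fold change of −0.98. *fbp1*, the gluconeogenic fructose-1,6-bisphosphatase, was at 16.9, 12.9 and 14.6 CPM in the libraries labelled *set1*Δ, against 82.5, 55.3 and 57.3 CPM in *htb1-P102L* (log2 fold change −2.14). *rsv2*, for a zinc finger factor of starved and sporulating cells, averaged 63.3 ± 7.88 CPM in the libraries labelled *set1*Δ and 489.8 ± 57.1 CPM in *htb1-P102L* (log2 fold change −2.95). The invertase gene *inv1* (log2 fold change −1.15) and *rsv1* (−1.26) also fell. On the signalling side, *pka1*, the catalytic subunit of protein kinase A, was at 23.2, 20.6 and 20.0 CPM in the libraries labelled *set1*Δ, against 51.2, 58.8 and 55.8 CPM in *htb1-P102L* (log2 fold change −1.38). The 3 subunits of the glucose-sensing G protein fell with it: *gpa2* (log2 fold change −1.15), *git5* (−1.54) and *git11* (−1.11). The receptor gene *git3* (−0.46) and the adenylate cyclase gene *cyr1* (−0.32) were not called. Genes that the kinase represses and the gene of the kinase itself changed in the same direction.

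Other sugar genes were split. Among 8 hexose transporter genes, *ght1* (log2 fold change −1.65) and *ght2* (−1.53) were called lower, and *ght7* (1.76), at 1.36 ± 0.244 CPM in the libraries labelled *set1*Δ and 0.394 ± 0.0265 CPM in *htb1-P102L* (SD, n = 3 each), was called higher. *gal1*, *gal7* and *gal10*, the genes of galactose breakdown, lie next to each other near a chromosome end and were called lower by log2 fold changes of −1.49, −1.27 and −1.45. In glycolysis, 16 of 19 genes were not called. The exceptions were minor copies, as *eno102* averaged 8.80 FPKM in the libraries labelled *set1*Δ and 31.7 FPKM in *htb1-P102L*, while the main enolase gene *eno101* averaged 11047 and 10459 FPKM in the same order. By log2 fold change, *eno102* (−1.71) and *pdc201* (−1.51) were lower, and *pdc102*, in a subtelomeric region, was higher (2.38). The glucose-6-phosphate dehydrogenase gene *zwf2* had a log2 fold change of −2.98, from 23.1 ± 4.06 CPM in the libraries labelled *set1*Δ against 182 ± 30.3 CPM in *htb1-P102L*.

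The largest differences also held *fhn1* and *pil1*, which belong to the eisosome, a furrowed domain of the plasma membrane, and several genes with little annotation. No list of eisosome genes was counted, and *sle1* (log2 fold change −0.07), another gene of that domain looked up afterwards, was not called. *fhn1*, a membrane protein gene of that domain, was at 37.9, 26.4 and 21.2 CPM in the libraries labelled *set1*Δ, against 483, 558 and 535 CPM in *htb1-P102L* (log2 fold change −4.21). *pil1*, its main BAR domain protein, was at 616, 573 and 505 CPM in the libraries labelled *set1*Δ, against 3560.1, 2885 and 2426 CPM in *htb1-P102L* (log2 fold change −2.39). *eis1*, named after its values were seen, had a log2 fold change of −1.99. The gene with the largest fall of all was *rds1*, known to respond to adenine, carbon dioxide and stress (log2 fold change −5.24, standard error 0.232). It was at 14.6, 27.2 and 20.4 CPM in the libraries labelled *set1*Δ, against 672, 953 and 734 CPM in *htb1-P102L*. SPAC343.20 on the other strand covers 88.8% of its length. The listed strains differ in their *ade6* entries, and the part of this in the *rds1* values was not tested. SPAC23H3.15c, a protein gene found only in fission yeasts, had 52.2 ± 4.05 CPM in the libraries labelled *set1*Δ and 1159.7 ± 269.9 CPM in *htb1-P102L* (log2 fold change −4.47). *lsd90* was at 115, 113 and 120.2 CPM in the libraries labelled *set1*Δ, against 1706, 929 and 894 CPM in *htb1-P102L* (log2 fold change −3.34), and its *htb1-P102L* replicate 1 was the high one. *ish1*, for a nuclear envelope LEA domain protein that rises in stress, had a log2 fold change of −3.45 and SPBC21C3.19, annotated as an SBDS family protein gene, of −3.61. *mug108* had a log2 fold change of −4.19, and a gene of the opposite strand overlaps its whole length, so reads of the pair cannot be told apart.

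Nitrogen genes moved in both directions. Of 16 genes for nitrogen and amino acid catabolism, 3 were called higher and 4 lower. The neighbours *urg1*, *urg2* and *urg3*, which uracil induces, were all lower: *urg1* was at 1226, 1122 and 1062 CPM in the libraries labelled *set1*Δ, against 4996, 3858 and 3842 CPM in *htb1-P102L* (log2 fold change −1.90), *urg2* had a log2 fold change of −1.39 and *urg3* of −1.09. The uracil permease gene *fur4* went the other way, at 155, 161 and 172 CPM in the libraries labelled *set1*Δ, against 66.2, 71.5 and 68.8 CPM in *htb1-P102L* (log2 fold change 1.24). *ura4*, which the uracil pathway needs, was counted in *htb1-P102L* replicate 1 alone, and the part of this difference in the *urg* and *fur4* values was not tested; without that library *urg1* had a log2 fold change of −1.76 and *fur4* of 1.21. *gdh1*, the NADP-dependent glutamate dehydrogenase, averaged 971 ± 50.5 CPM in the libraries labelled *set1*Δ and 2224 ± 262 CPM in *htb1-P102L* (log2 fold change −1.20). *car2*, the ornithine transaminase, was at 840.1, 884 and 868 CPM in the libraries labelled *set1*Δ, against 389.7, 385 and 346 CPM in *htb1-P102L* (log2 fold change 1.21).

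Among the genes called higher, phosphate acquisition was one group with several members. Of 10 phosphate genes, 3 were called higher, against 3.43% of all tested genes, and none lower. The secreted acid phosphatase gene *pho1* was at 2024, 2482 and 2037 CPM in the libraries labelled *set1*Δ, against 342, 411 and 440.4 CPM in *htb1-P102L* (log2 fold change 2.46, standard error 0.163, adjusted p = 1.39e-07). The phosphate transporter gene *pho84* was at 415, 465 and 439 CPM in the libraries labelled *set1*Δ, against 87.9, 114 and 147 CPM in *htb1-P102L* (log2 fold change 1.92). *pho7*, the transcription factor that activates both, was at 18.1, 19.8 and 15.1 CPM against 7.08, 5.64 and 4.64 CPM in *htb1-P102L* (log2 fold change 1.63). The activator gene and both target genes stood higher, with no overlap of libraries in any of them. Whether the targets follow *pho7* was not tested. The third gene of the phosphate regulon, *tgp1*, was not called (log2 fold change 0.25). All 3 calls held in every alternative fit that was run.

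Some abundant cell wall genes and a cell separation gene were higher, while most genes of both lists were not called. *gas1*, a glucanosyltransferase that links wall glucan, was at 2670.0, 2569.6 and 2908 CPM in the libraries labelled *set1*Δ, against 814, 597 and 589.7 CPM in *htb1-P102L* (log2 fold change 2.03, standard error 0.173, adjusted p = 1.2e-06). With the glucosidase gene *exg1* (1.43) and *gas5* (1.07) it made 3 of 21 cell wall genes that were called higher. None of the 21 was called lower, but the glucan synthase genes *bgs1*, *bgs3*, *bgs4* and *ags1* were not called and the median of the list was −0.05. The genes that rose encode wall-remodelling enzymes. Without *htb1-P102L* replicate 2, and under total-count scaling, 2 of the 3 were called, and *gas5* shares 84.4% of its length with SPAC11E3.12 on the other strand. The wall protein gene *asl1* averaged 1564 ± 154 CPM in the libraries labelled *set1*Δ and 640.4 ± 47.9 CPM in *htb1-P102L* (log2 fold change 1.29). Of 10 cell separation genes, 2 were called higher and 8 were not called, from −0.56 for *cfh4* to 0.95 for *adg2*. *eng1*, the endoglucanase that dissolves the primary septum, was at 74.6, 83.5 and 74.6 CPM in the libraries labelled *set1*Δ, against 16.8, 11.5 and 10.3 CPM in *htb1-P102L* (log2 fold change 2.61, standard error 0.155).

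G1/S genes rose in part. Of 17 genes known as MBF targets, 4 were called higher and 1 lower. *cdc22*, the large subunit of ribonucleotide reductase, was at 320.3, 367 and 304 CPM in the libraries labelled *set1*Δ, against 106, 94.6 and 74.9 CPM in *htb1-P102L* (log2 fold change 1.85, standard error 0.137, adjusted p = 3.64e-07). *dut1*, the dUTPase, was at 18.1, 20.3 and 20.3 CPM in the libraries labelled *set1*Δ, against 3.27, 4.28 and 4.16 CPM in *htb1-P102L* (log2 fold change 2.31), but it lies wholly within a gene of the opposite strand, SPAC644.04. *cdt1* (1.14) and *tos4* (1.02) were the others that rose, and *eso1* (−1.43) was the one that fell. *cdc18* (0.51), *cig2* (0.68) and the MBF repressor genes *nrm1* (−0.02) and *yox1* (−0.14) were not called. Of 14 checkpoint genes, *rad9* (1.22), *rad4* (1.09) and *swi1* (1.30) were called higher, all below 10 CPM, and the number fell to 1 under total-count scaling and without replicate 1 of the libraries labelled *set1*Δ. *swi1* shares 84.5% of its length with *rad3* on the other strand. Among 21 homologous recombination genes only the meiotic recombinase gene *dmc1* was called, lower by a log2 fold change of −1.25. The ubiquitin ligase and deubiquitinase genes for H2B were not called in any of 8 cases, with log2 fold changes from −0.44 for *sgf73* to 0.82 for *sus1*; the ligase genes *brl1*, *brl2* and *rhp6* were at 0.56, −0.15 and −0.07.

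**Figure D3:**
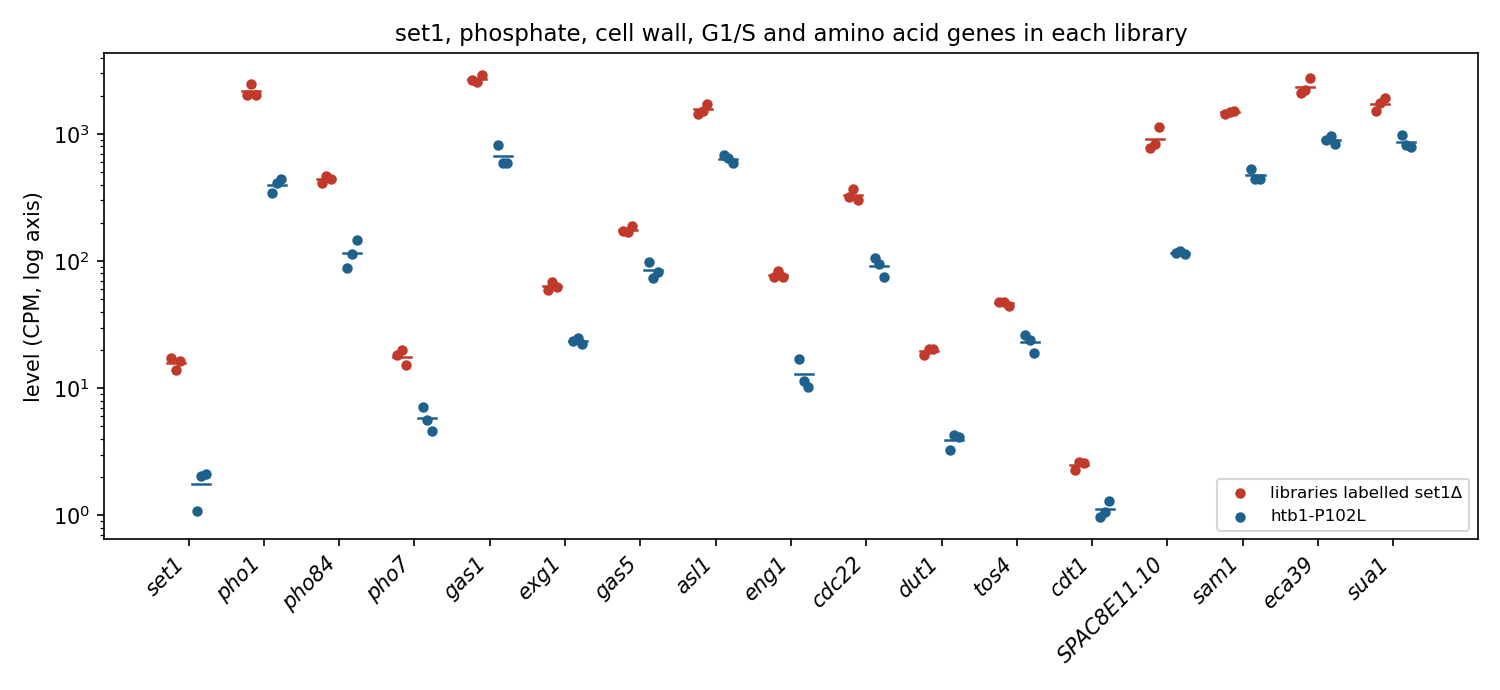
Points are the 3 libraries of each group, red for the libraries labelled *set1*Δ and blue for *htb1-P102L*, with group means as bars and the level in CPM on a log axis. Every red point lies above every blue one in the 17 genes, from *cdt1* at 2.49 ± 0.206 against 1.11 ± 0.173 CPM up to *gas1* at 2716 ± 174 against 667 ± 127 CPM (SD, n = 3 each).

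Further abundant genes called higher belong to amino acid and sugar metabolism. SPAC8E11.10, annotated as a sorbose reductase, was at 773, 833 and 1131 CPM in the libraries labelled *set1*Δ, against 115, 119.5 and 114 CPM in *htb1-P102L* (log2 fold change 2.97, standard error 0.158). The S-adenosylmethionine synthetase gene *sam1*, which makes the methyl donor of methyltransferases, was at 1445, 1497 and 1504 CPM in the libraries labelled *set1*Δ, against 529, 445 and 445 CPM in *htb1-P102L* (log2 fold change 1.65). *eca39*, a branched-chain aminotransferase gene, averaged 2358 ± 336 CPM in the libraries labelled *set1*Δ and 902 ± 65.1 CPM in *htb1-P102L* (log2 fold change 1.39). *sua1*, for sulfate adenylyltransferase, was higher by a log2 fold change of 1.02, while a sulfate transporter gene, SPBC3H7.02, was lower by 1.93. In WT, on the scale over 9 libraries, *sua1* was at 3457 ± 598 CPM. That lay above both 1640 CPM in the libraries labelled *set1*Δ and 796 CPM in *htb1-P102L*. Of 141 genes whose names mark cytosolic ribosomal proteins, 2 were called higher and 1 lower, and 1 of those, *rpp40*, encodes an RNase P subunit. Values below the threshold leaned to 1 side. Of the 141, 108 had positive values, with a median log2 fold change of 0.17 against −0.03 over all tested genes. *rps1401* (1.92) overlaps the gene SPAC3H5.04 on the other strand over its whole length. None of 36 proteasome genes and none of 18 citrate cycle genes was called.

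Chromosome ends held genes of both directions. Of 133 tested genes of the terminal cosmids, 23 were called higher and 16 lower, and the number called higher was 15 when only genes with at least 10 counts in every library were tested. *tlh2*, a subtelomeric RecQ-type helicase gene of a repeated family, averaged 10.9 ± 3.54 CPM in the libraries labelled *set1*Δ, against 0, 0 and 1.55 CPM in *htb1-P102L* (log2 fold change 4.17). Its near copy *tlh1* varied within both groups and was not called (log2 fold change 1.45), and reads of such copies may be shared. SPAC750.08c, a malic enzyme fragment, was at 17.7, 14.4 and 22.0 CPM in the libraries labelled *set1*Δ, against 2.24, 1.44 and 0.549 CPM in *htb1-P102L* (log2 fold change 3.79). With SPAC186.07c, *pdc102*, SPAC750.01 and SPAC750.07c it made a run of 5 neighbouring tested genes that were all called higher, the longest in either direction. SPAC750.07c had the same values as SPAC212.12 (log2 fold change 1.62), which is also among the 23. The same reads may be counted at both, so these calls may not be separate. Further transcripts of subtelomeric regions, *grt1* (3.32) and SPBPB2B2.06c (3.21), were below 10 CPM in every library. Among the genes called lower, 7 runs of at least 3 neighbours were found, among them *urg2*, *urg3* and *urg1*.

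Mating genes did not move as a group. Of 22 tested genes, 2 were called higher and 3 lower. *map3*, the receptor of P cells for the M pheromone, was at 13.4, 14.3 and 11.8 CPM in the libraries labelled *set1*Δ, against 1.15, 1.62 and 3.74 CPM in *htb1-P102L* (log2 fold change 2.52). *spk1*, the pheromone MAP kinase gene, averaged 14.9 ± 3.36 and 2.46 ± 1.54 CPM in the same order (log2 fold change 2.49). Both overlap other genes on the opposite strand, over 99.8% of *map3* and 77.3% of *spk1*. *mfm2*, a precursor gene of the M pheromone, was at 0.41, 0.61 and 0.478 CPM in the libraries labelled *set1*Δ, against 8.47, 10.2 and 0.137 CPM in *htb1-P102L*, which follows the *mat1-Mc* counts. It was called lower (log2 fold change −3.59), but the call rests on replicates 1 and 2 and without them the value was 1.84. The other mating genes called lower were *ste6* (−2.05) and *fus1* (−1.01). Another M pheromone gene, *mfm1* (0.31), and the P pheromone gene *map2* (0.31) were not called. Among 104 meiotically upregulated *mug* and *meu* genes, 3 were called higher and 14 lower, with *mug35* (−2.52), *mug190* (−2.33) and *mug143* (−1.87) falling most after *mug108*. None of 10 histone genes was called, but 9 of the 10 had negative values, from −0.34 for *hht2* to −0.96 for *hht3* and *htb1*. The exception was the H2A.Z gene *pht1* at 0.29. Under total-count scaling 2 of the histone genes were called lower, and 1 was without replicate 2 of the libraries labelled *set1*Δ or without *htb1-P102L* replicate 3.

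Of the tested genes, 2 were at 0 in every *htb1-P102L* library. *uga1*, the GABA transaminase gene, had 188, 192 and 207 counts in replicates 1, 2 and 3 labelled *set1*Δ and 0 in all 3 *htb1-P102L* libraries, at least 63.8-fold higher when each *htb1-P102L* library is allowed 3 counts. It lies within a gene of the opposite strand, SPAC14C4.01c. SPCC965.12, annotated as a dipeptidyl peptidase and named after its values were seen, had 93, 117 and 70 counts there and 0 in *htb1-P102L*, at least 30.4-fold higher by the same floor. No tested gene was at 0 in all 3 libraries labelled *set1*Δ. These floors cover counting error only. On the scale over 9 libraries, WT held *uga1* at 14.2, 14.1 and 12.4 CPM. Its mean under the *set1*Δ label was lower, at 7.93 CPM. For *uga1* the absence in *htb1-P102L* was thus what stood apart, and its fold change is not a rise over WT.

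**Figure D4:**
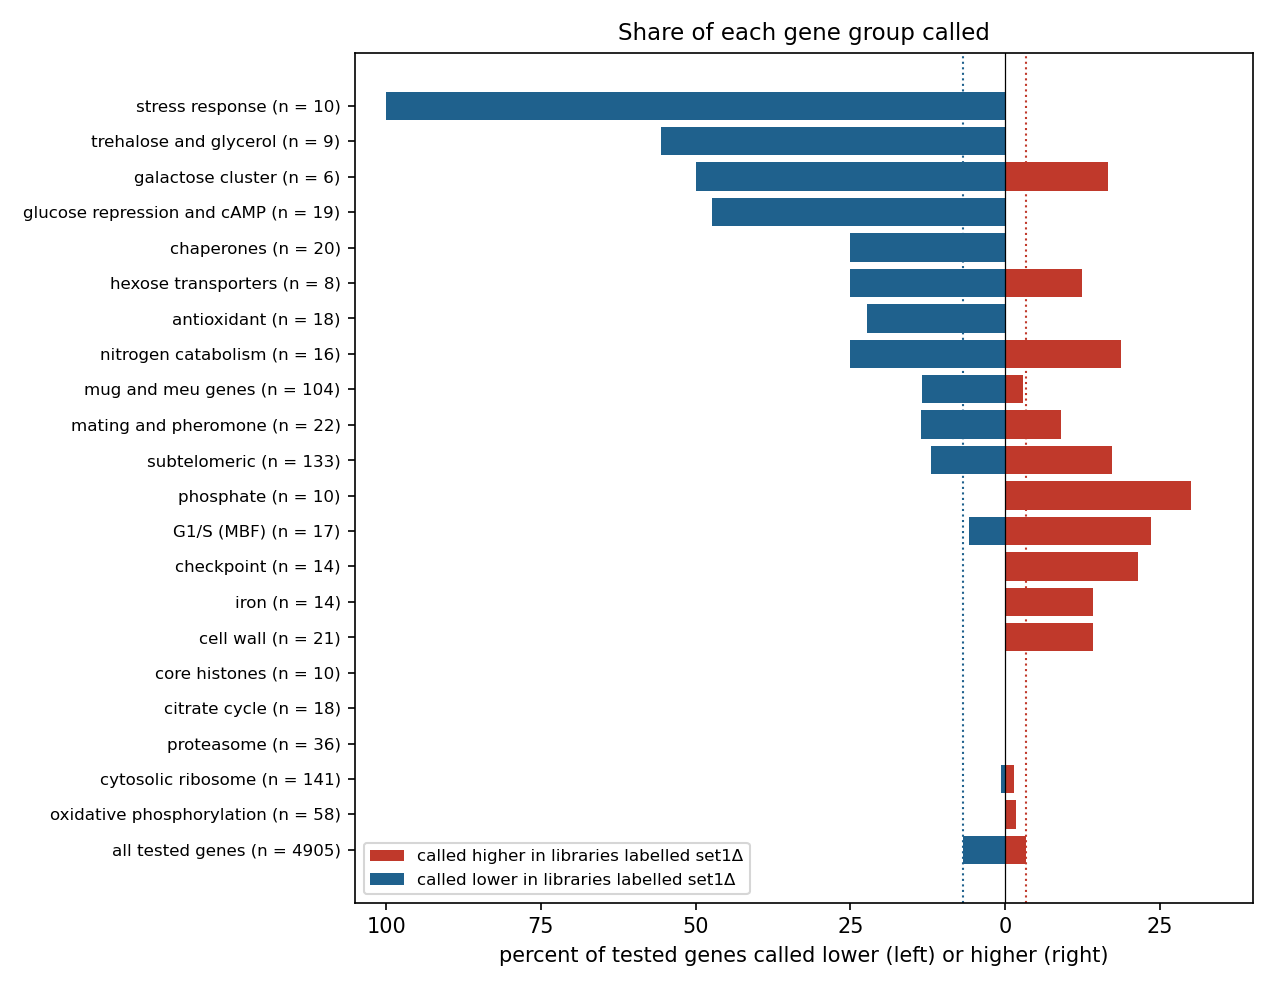
Bars give the share of the tested genes of each group called higher (right, red) or lower (left, blue) in the libraries labelled *set1*Δ than in *htb1-P102L*, with the number of tested genes in brackets; dotted lines mark the shares over all tested genes (3.43% and 6.71%). The stress list reaches 100% lower, the trehalose and glycerol list 55.6% lower, and the phosphate list 30.0% higher, while the citrate cycle, proteasome and histone groups have no bar.

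By the annotation terms in the deposited tables, the shares pointed to the same genes. Among 220 GO process terms that had 15 or more genes tested, the highest shares called lower were 31.3% (5 of 16) for negative regulation of conjugation, made up of *gpa2*, *pka1*, *git5*, *git11* and *srk1*, and 29.4% (5 of 17) for the response to osmotic stress, made up of *pyp2*, *gpd1*, *atf1*, *srk1* and *ptc1*. The highest shares called higher were 17.4% (4 of 23) for drug transmembrane transport, of which 3 more genes were called lower, and 13.6% (3 of 22) each for fungal cell wall organization and the DNA replication checkpoint. Over 68 KEGG pathways, galactose metabolism (29.4%, 5 of 17) led the shares called lower. Pyruvate metabolism (13.8%, 4 of 29) led those called higher, but 2 of its 4 genes are StringTie transcripts without an annotated gene, and 3 of the 29 were called lower.

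Stretches of some promoters are shown because known binding motifs of the regulators occur in them. In the 300 bases before each annotated gene start of RefSeq ASM294v3, 4844 tested genes had a full window. The letters TGACGT, the core bound by Atf1, were found on either strand before 56 of 323 genes called lower (17.3%), 5 of 151 genes called higher (3.31%) and 291 of all 4844 tested genes (6.01%). In the genes called lower they occurred before *ctt1*, *gpd1*, *ntp1*, *atf1*, *srk1*, *ptc1*, *rsv2*, *pil1*, *rds1* and *ish1*, among others. The letters ACGCGT, the core of the MBF site, were found before 13 genes called higher (8.61%), 8 called lower (2.48%) and 136 of all tested (2.81%). They occurred before *cdc22*, *cdt1*, *tos4*, *rad4* and *pho1*. Of the 17 G1/S genes 8 held them, among which *psm3*, *cdt2*, *mrc1*, *yox1* and *ssb1* were not called. *dut1*, which was called higher, held none. A further motif searched in the same way was found at similar shares before genes called higher (3.97%), genes called lower (3.41%) and all tested genes (3.32%), and is not shown. A match is a description of letters and not a measured binding site. The stretches run 5′ to 3′ toward the gene, with the match in capitals, and lie upstream of the named gene. Those other than of *ctt1* and *cdt1* overlap an annotated exon of another transcript.
ctt1, chrIII:58875-58904, minus strand: attgtgcaaataTGACGTtggtaattctac
gpd1, chrII:4035431-4035460, plus strand: atgtcaggcatgTGACGTttggtatcacct
gpd1, chrII:4035480-4035509, plus strand: tgtagtgtttttACGTCAtttggtacggct
ntp1, chrII:206500-206529, plus strand: gtcaggtagactACGTCAttgagtaacgaa
cdc22, chrI:4226896-4226925, plus strand: tatattagcgtgACGCGTctgaacgcgttt
cdt1, chrII:477303-477332, plus strand: gatagctacgcgACGCGTcaacaaacgcga
tos4, chrI:1922452-1922481, plus strand: aaaatcaataaaACGCGTcgcgacgcggct

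In the stress genes the letters appear as TGACGT or, read on the other strand, as ACGTCA, and *gpd1* holds both orientations within its window. In *cdc22* a further ACGCGT, in lower case, follows the capitals. Of the 10 stress genes, 3 held the Atf1 letters within this window.

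WT levels were read beside both groups, with no test and on a TMM scale over the 9 libraries of the 3 genotypes. For the 329 genes called lower, the WT mean was nearer on a log2 scale to the libraries labelled *set1*Δ in 275 (83.6%) and nearer to *htb1-P102L* in 54. Their median log2 ratio to WT was −0.18 in the libraries labelled *set1*Δ and 1.15 in *htb1-P102L*. The WT mean lay between the groups in 209 of the 329, below both in 117 and above both in 3. For the 168 genes called higher the WT mean was nearer to the libraries labelled *set1*Δ in 104 (61.9%) and nearer to *htb1-P102L* in 64. Their median log2 ratio to WT was 0.31 in the libraries labelled *set1*Δ and −0.84 in *htb1-P102L*. The WT mean lay between the groups in 93 of the 168, above both in 44 and below both in 31. *cdc22* was at 312 CPM in the libraries labelled *set1*Δ, 85.3 CPM in *htb1-P102L* and 464 ± 38.9 CPM in WT. *gas1* was at 2566 CPM in the libraries labelled *set1*Δ, 619 CPM in *htb1-P102L* and 2112 ± 296 CPM in WT. The WT level of these genes lay near the libraries labelled *set1*Δ. *pho1* was the other way, at 2059 CPM in the libraries labelled *set1*Δ, 368 CPM in *htb1-P102L* and 224 ± 83.8 CPM in WT. *pho84* was at 416, 107 and 169 ± 31.6 CPM in the same order. The activator gene *pho7* was at 16.7, 5.37 and 15.8 ± 5.78 CPM, so its WT level lay near the libraries labelled *set1*Δ. The WT level of *ctt1* lay between the groups, at 51.2 CPM in the libraries labelled *set1*Δ, 868 CPM in *htb1-P102L* and 207 ± 55.4 CPM in WT. For *rds1*, WT varied widely (796 ± 562 CPM, SD, n = 3) around 728 CPM in *htb1-P102L*, against 19.6 CPM in the libraries labelled *set1*Δ.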

How the data were processed

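Libraries were compared as 3 labelled *set1*Δ against 3 of *htb1-P102L*, and the groups were taken from the sample titles. RNA was extracted with Trizol. The notes and methods name fastp, Bowtie2 (removal of rRNA reads), HISAT2, StringTie, RSEM and DESeq2, with reads mapped to an Ensembl reference genome, while the counting tool's settings, its use of strand and the name of the assembly are not given in the sources used here. The authors deposited whole-number counts per gene and FPKM values, with their own fold changes and p-values, which were not used. Tables were joined by gene ID (5195 genes, 59 of them new transcripts), and 45 further per-sample columns were not used. Counts were fitted with edgeR 4.0.16 in R 4.3.3 (filterByExpr, TMM, quasi-likelihood test, Benjamini-Hochberg adjustment over 4905 tested genes). On simulated counts of this comparison, 194 of 200 genes changed by a log2 fold of 2 were recovered, with 3 false calls. Smaller changes, which most of the called genes had, were not simulated. CPM values are TMM-scaled. WT entered no test.

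RefSeq ASM294v3 entries were matched by locus tag for 5109 genes, and the authors' build may differ. Named genes were the strain markers, the called genes with the largest fold or CPM difference in each direction, and up to 4 called members per list and direction; exceptions are stated. Members and lists were chosen with earlier results of these data known. Alternatives were DESeq2 1.42.0, total-count scaling, other count filters, a gene-length offset, all 24 libraries fitted together, the replicate number as a block, and libraries left out. Some results are not reported here.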

Additional observations from a re-analysis of the deposited data

How the results depend on the processing

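The number of genes called higher was 177 with DESeq2, 124 with total-count scaling, 173 without a count filter, 130 with at least 10 counts in every library, 177 with a gene-length offset and 150 with all 24 libraries in one fit, against 168 as reported. The number called lower was 306, 413, 341, 298, 280 and 308 in the same order, against 329. Leaving out 1 library at a time gave 152 to 189 genes higher and 324 to 359 lower, and leaving out both *htb1-P102L* libraries with *mat1-Mc* counts, which leaves 1 library assumed to vary like the others, gave 183 and 384. With the adjusted p alone and no fold threshold, 907 genes were higher and 1083 lower. Of 1769 values of 119 called and named genes under 15 alternatives, 1686 kept their call, 82 lost it and 1 reversed. The value that reversed was that of *mfm2*, with a log2 fold change of 1.84 without both *mat1-Mc* libraries, and the cause was not tested. The adjusted p alone, counted among the 15, used the same fit, so its 119 values could only keep their call. Samples with the same replicate number did not deviate together (correlations across genes of −0.04, 0.03 and −0.15), and with the replicate block 168 genes were higher and 331 lower, with 1 of the 119 named calls lost. Of the genes called higher and lower, 81 and 128 lay under 10 CPM in both groups, where few counts limit precision.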

Other observations

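Further annotation terms had high shares of genes called lower in the libraries labelled *set1*Δ than in *htb1-P102L*. Of 35 tested genes of starch and sucrose metabolism 8 were called lower (22.9%), among them the alpha-amylase homologue gene *aah2* and the maltase gene *mal1*, and 1 was called higher. Of 15 genes for the dynein-driven nuclear movement of meiosis 4 were called lower (26.7%), *mcp5*, *mcp6*, *dic1* and *mug1*, and none higher. Of 21 genes for negative regulation of the G2/M transition 6 were called lower (28.6%), *clp1*, *pyp1*, *pyp2*, *hsp9*, *mpr1* and *srk1*, and 1 higher. These shares stand beside 6.71% of all tested genes and were chosen as the highest among all terms, so no test was made of them.

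Of 14 iron uptake genes, *fip1* (log2 fold change 1.46) and *frp2* (1.13) were called higher and none lower, and none of the 14 was called when all 24 libraries were fitted together. Runs of neighbouring genes called lower also held *dak1*, *rrp40*, *mug84* and SPAC22A12.14c, and *mug2*, *cut4* and *pka1*. Of the genes called higher 15, and of those called lower 6, were new transcripts with no annotated gene.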
